A study of Mus musculus with 106 samples.

Results

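Sox proteins are transcription factors that share the HMG box, a domain that binds the minor groove of DNA and bends it, and they act mostly together with partner factors bound next to them. Sox2 and Sox3 belong to the SoxB1 group. Sox2 works with Oct4 (Pou5f1) to keep embryonic cells pluripotent, and Sox3, an X-linked gene, is best known in the epiblast and the neural plate. Sox4 and Sox11 are SoxC factors of progenitors and of differentiating neural and mesenchymal cells. Sox17 is a SoxF factor of endoderm and endothelium, and in human embryos it specifies primordial germ cells (PGCs), the precursors of eggs and sperm. The 5 genes described here were taken by the symbol of their probe sets, 5 of 18193 named genes on the array, and are covered by 19 probe sets.

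The cells are single cells of mouse embryos, each amplified as cDNA and read on its own Affymetrix array. They come in 11 groups. There were 20 and 12 cells of Blimp1 knockout embryos at the late-streak/0-bud (LS/0B) and early/mid-bud (E/MB) stage, chosen as cells with Oct4 and the non-functional transcript of the Blimp1 null allele; Blimp1 (Prdm1) is a repressor required to form PGCs. All cells, the knockout ones (Blimp1 -/-) included, are labelled C57BL/6, and all groups share the choice of cells by amplified transcripts. The wild-type lineage held 8 posterior epiblast cells of the pre-streak stage (PS; Oct4 and T positive), 7 early/mid-streak (E/MS) and 17 LS/0B precursors positive for Blimp1 and Oct4, and 8 PGCs each at E/MB, early head fold (EHF) and embryonic day 8.25, all positive for Blimp1 and for stella (Dppa3). Other wild-type cells were taken as well: 4 cells each at E/MB and EHF that had Blimp1, Oct4 and Hoxb1, and 10 posterior mesoderm cells from the base of the allantois at E/MB, which had Oct4 and Hoxb1 but no Blimp1. The 4 cells taken as EHF are so named in their description and source, while their titles say E/MB. The labels name no embryo, so each group counts as 1 sample. Differences are therefore given with the SD over cells and without a test, and the spread between embryos is unknown.

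A cell's value for a gene is the MAS5 signal of its brightest probe set, a linear intensity, and means and differences are given on a log2 scale with signals under 70.2 raised to that floor (6.13 log2 units). A gene is called detected in a cell above the 95th percentile of probe sets for olfactory, vomeronasal, taste and hair keratin genes, a signal between 82.8 and 166. A difference counts as called at 1 log2 unit or more when the gene is detected in 50% or more of the cells in whichever group is higher. The arrays detected 11215 to 12960 probe sets per group on average. The mesoderm arrays stood apart: their hybridisation controls averaged 10.74 ± 0.38 log2 units (SD, n = 10), against 9.16 ± 0.30 on the other arrays (n = 96). Xist, an RNA made from the silenced X of female cells, was detected in all 8 PS cells and 8 of 17 LS/0B precursors. It was in 5 of 8 EHF PGCs and 1 of 4 cells of either Blimp1+ Hoxb1+ group, and in no cell of the other groups. Sex was read from Xist alone, so a cell without it need not be male, and cells without Xist need not share a sex.

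The set of RefSeq promoters used here (GRCm38.p6) held 3 of the 5 genes and lacked Sox3 and Sox17. The 250 bases before each start are printed because Sox2 was higher, and Sox4 and Sox11 lower, in E8.25 PGCs than in PS cells. Capitals mark matches on either strand to the octamer core ATGCAAA, the Sox motifs ACAAAG and ACAATG, the CCAAT box and TATAAA. The sequences read 5′ to 3′ along the gene, Sox2 from chr3:34649745-34649994 (plus strand), Sox11 from chr12:27342719-27342968 (minus strand) and Sox4 from chr13:28953700-28953949 (minus strand).
Sox2: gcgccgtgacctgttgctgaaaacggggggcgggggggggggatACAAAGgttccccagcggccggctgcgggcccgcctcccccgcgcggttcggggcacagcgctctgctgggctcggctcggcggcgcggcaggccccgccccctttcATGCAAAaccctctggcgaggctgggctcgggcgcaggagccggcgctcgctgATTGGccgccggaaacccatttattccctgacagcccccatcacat
Sox11: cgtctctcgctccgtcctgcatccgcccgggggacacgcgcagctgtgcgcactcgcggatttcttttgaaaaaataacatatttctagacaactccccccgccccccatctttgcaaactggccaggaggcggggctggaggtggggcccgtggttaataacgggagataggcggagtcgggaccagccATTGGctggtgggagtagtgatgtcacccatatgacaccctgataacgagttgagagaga
Sox4: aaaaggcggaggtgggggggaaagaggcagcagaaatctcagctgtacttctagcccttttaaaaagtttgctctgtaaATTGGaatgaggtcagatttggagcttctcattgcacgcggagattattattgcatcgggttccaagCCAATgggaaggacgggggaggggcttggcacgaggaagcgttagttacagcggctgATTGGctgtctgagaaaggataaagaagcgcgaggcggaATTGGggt
The Sox2 window held an octamer core at -99 to -93, a Sox motif at -206 to -201 and a CCAAT box at -46 to -42. The Sox4 window held 4 CCAAT boxes and the Sox11 window 1, at -60 to -56, and neither held the octamer core or a Sox motif. Of 32851 mouse promoter windows of this length, 4.12% held the octamer core, 16.5% ACAAAG, 10.7% ACAATG, 33.8% a CCAAT box and 12.4% TATAAA. GC content was 72% for Sox2, 58% for Sox11 and 50.8% for Sox4. Sox3 and Sox17 are named only.

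**Figure D1:**
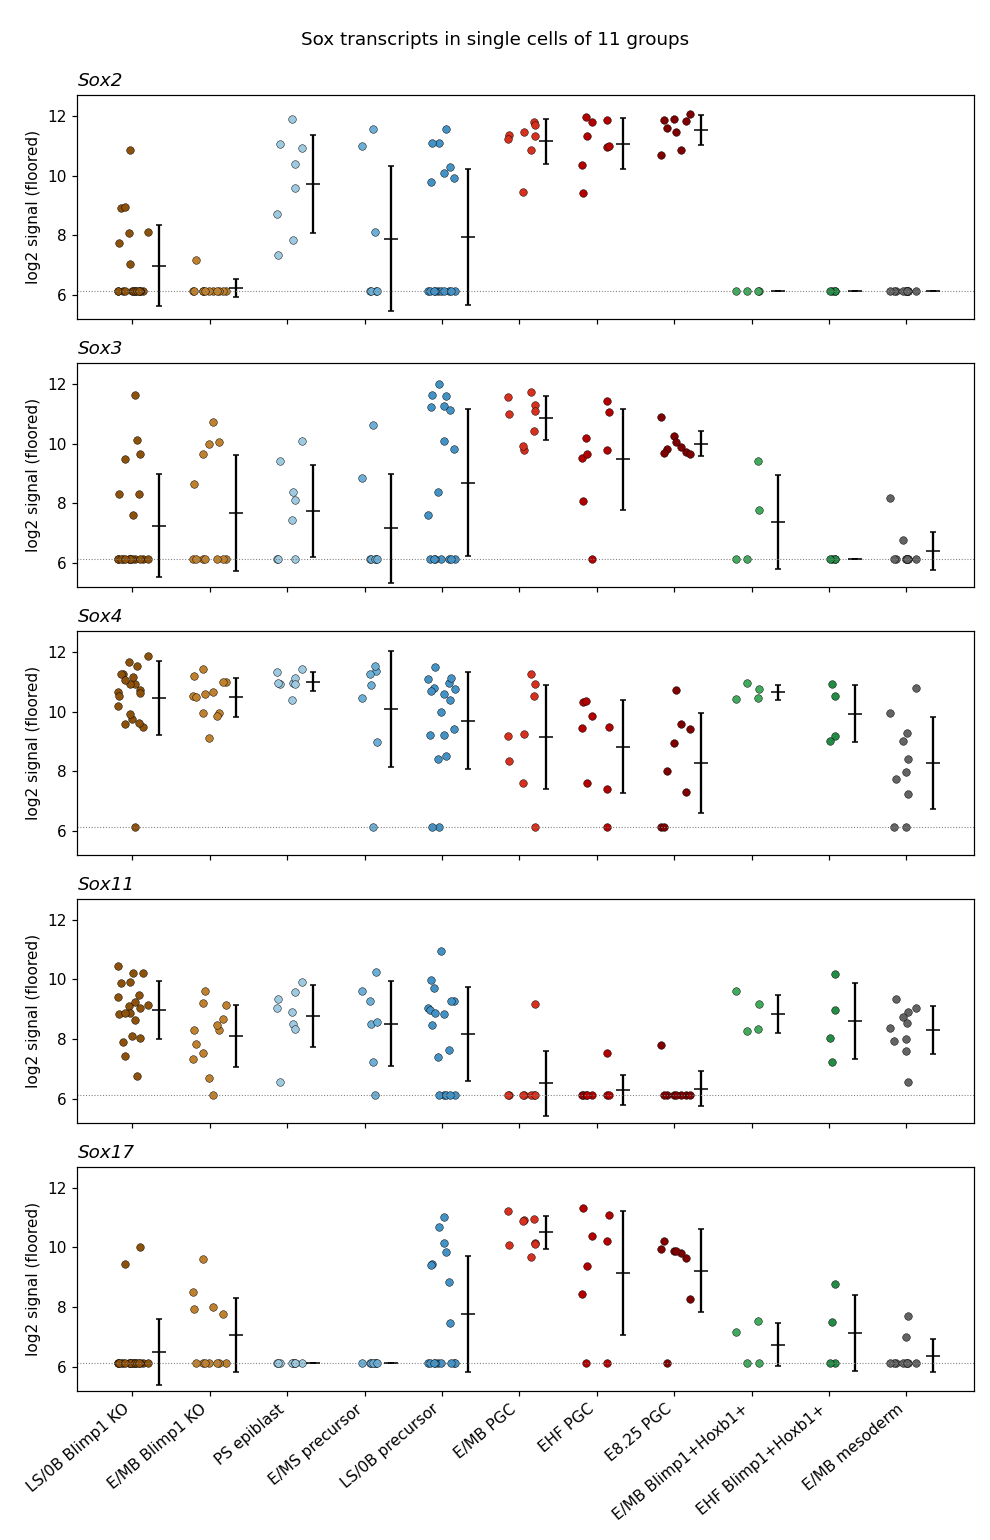
Floored log2 signal of the 5 Sox genes (panels) in every cell of the 11 groups on the horizontal axis; points are cells, dashes and bars the mean ± SD over cells, and the dotted line the floor of 6.13. Sox2, Sox3 and Sox17 are high in the 3 PGC groups, where 1 of 8 cells each has Sox11 by its brightest probe set.

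Sox2 was detected in every PS cell and every PGC and was patchy in the precursors between them. Its signal ran from 160 over a median of 1053 to 3787 in the 8 PS cells. In the E/MS precursors it was 276, 2044 and 3034 in 3 cells and at most 2.46 in the other 4. In the LS/0B precursors 7 of 17 cells (41.2%, exact 95% interval 18.4 to 67.1%, which covers counting error only) had it, at 877 to 3047. All 8 E/MB PGCs had it, from 691 over a median of 2614 to 3543, and so did all 8 EHF PGCs (678, 2282 and 3977) and all 8 E8.25 PGCs (1640, 3367 and 4301). Cells were thus either high or near the background at both precursor stages, and no PGC was without the transcript. Group means were 9.71 ± 1.64 log2 units at PS, 7.89 ± 2.43 at E/MS, 7.95 ± 2.28 at LS/0B, then 11.15 ± 0.75, 11.07 ± 0.87 and 11.53 ± 0.51 in PGCs at E/MB, EHF and E8.25.

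Sox3 was also patchy before the bud stage. It was detected in 5 of 8 PS cells, 2 of 7 E/MS and 10 of 17 LS/0B precursors, and then in 8, 7 and 8 of 8 PGCs. Its means were 7.73 ± 1.54, 7.16 ± 1.83, 8.68 ± 2.47, 10.85 ± 0.73, 9.48 ± 1.69 and 9.998 ± 0.42 in the same order of stages. The E/MB PGCs, at 886 over 2099 to 3421, were the highest of the 11 groups, and their lead of 0.85 over E8.25 PGCs was larger than the SD of either group. The E8.25 PGCs were the most even, 7 of 8 of them between 810 and 1229 and the eighth at 1906. In EHF PGCs 1 cell, replicate 4, was at 33.6, and the other 7 lay between 270 and 2749. A further Sox3 probe set was above the limit in no cell.

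Sox17 was first seen at LS/0B. It was detected in 0 of 8 PS cells and 0 of 7 E/MS precursors, where signals reached at most 13.96. In LS/0B precursors 8 of 17 cells had it, at 176 to 2094. It was in all 8 E/MB PGCs, from 826 over 1512 to 2399, in 6 of 8 EHF PGCs and in 7 of 8 E8.25 PGCs. The EHF cells lacking it were replicates 2 and 6, at 10.9 and 5.35, and the E8.25 cell was replicate 2, at 12.03. Means were 7.77 ± 1.94 at LS/0B and 10.50 ± 0.55, 9.14 ± 2.07 and 9.23 ± 1.38 in the PGCs. Its second probe set was detected in 30 cells against 42 for the first.

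From PS cells to PGCs, Sox4 and Sox11 ran the other way. Sox4 was detected in all 8 PS cells, tightly between 1339 and 2751, and by its brightest probe set the stage means were 11.002 ± 0.32, 10.08 ± 1.94, 9.70 ± 1.63, 9.14 ± 1.76, 8.83 ± 1.57 and 8.28 ± 1.68. The order of the stages depends on the probe set: the third by brightness gave 6.89, 6.32 and 7.72 in PGCs at E/MB, EHF and E8.25, and the second gave 7.39 at E/MS and 8.12 at LS/0B. After PS it was detected in 6 of 7, 15 of 17, 7 of 8, 7 of 8 and 6 of 8 cells. Sox11 was detected in 7 of 8 PS cells (94.1 over 506 to 975), 6 of 7 E/MS and 12 of 17 LS/0B precursors, and in 1 of 8 PGCs at each of the 3 stages. Its means were 8.78 ± 1.04, 8.52 ± 1.42, 8.18 ± 1.58, 6.51 ± 1.08, 6.31 ± 0.50 and 6.34 ± 0.59. The PGCs with Sox11 had 584 at E/MB, 187 at EHF and 221 at E8.25, and the other PGCs were at 68.7 or below. These Sox11 counts and values are by its brightest probe set. The second brightest was above the limit in 2, 2 and 4 of 8 PGCs at the 3 stages, and in 7 of 17 LS/0B precursors. The third was above it in 3, 0 and 1 of 8 PGCs.

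Ranked over the 11 groups, few neighbours differed by more than the larger of their SDs. For Sox2 and Sox17 no neighbours did. For Sox3 the E/MB PGCs did so over the next group, as given above. For Sox4 the PS cells led the E/MB Blimp1+ Hoxb1+ cells (10.64 ± 0.25) by 0.36. For Sox11, by its brightest probe set, the 8 groups that are not PGCs lay between 8.11 and 8.98. The lowest of them, the E/MB knockout cells, was 1.59 above the E/MB PGCs. By the second brightest, mesoderm (6.83) lay below the PGCs at E/MB (6.87) and E8.25 (6.96), and the other groups that are not PGCs were at 7.03 or above.

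Set stage against stage, most calls were made at the bud stage. In E/MS precursors against PS cells 1 of the 5 genes was called lower, Sox2, by a difference of -1.83, where 6.51% of the 8113 genes tested were lower and 5.69% higher. All PS cells and no E/MS precursor had Xist, so sex, as read from Xist, and stage cannot be told apart here. The same holds for the choice of cells, by Oct4 and T at PS and by Blimp1 and Oct4 at E/MS. Without any 1 of E/MS replicates 1 to 4, or without PS replicate 4, Sox4 was called lower too. Without E/MS replicate 6, the brightest for Sox2 and Sox3 and the 1 cell without Sox4, Sox3 was called lower at -1.14 and Sox4 differed by -0.26. In LS/0B against E/MS precursors Sox3 was called higher, by 1.52 (3.16% of genes higher, 3.37% lower). Sox17 differed by 1.63 but was in 8 of 17 cells, just under the share required, and leaving out any 1 of the 9 LS/0B cells without it, replicates 1 to 5, 7, 8, 14 and 23, brought it past that share. Without E/MS replicate 6, Sox4 was called lower at -1.05. Among cells without Xist the Sox3 difference was 0.36 and the Sox17 difference 0.75, while that of Sox2 was -1.33, against 0.064 over all cells, and no gene was called.

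In E/MB PGCs against LS/0B precursors 3 genes were called higher and 1 lower, beside 6.52% and 5.38% of all genes tested. The differences were 3.20 for Sox2, 2.16 for Sox3 and 2.74 for Sox17, and -1.67 for Sox11. Sox4 differed by -0.55, less than the SD of either group. No E/MB PGC had Xist, and among the precursors without Xist the differences were larger for the genes that were higher, 4.59, 3.33 and 3.63, and -1.76 for Sox11. The same 4 genes were called when any 1 cell was left out. The Sox11 call was lost by its second brightest probe set, at -0.17, and by the mean of all its probe sets, at -0.74. Precursors were chosen by Blimp1 and Oct4 and PGCs by Blimp1 and Dppa3. Stage and the choice of cells therefore cannot be told apart at this step.

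Among the PGC stages fewer of the genes were called. In EHF against E/MB PGCs Sox3 was called lower by a difference of -1.37 and Sox17 by -1.36, beside 4.86% of genes lower and 4.17% higher. Each call rested on few cells: the Sox3 difference was -0.89 without EHF replicate 4, and the Sox17 difference -0.93 without EHF replicate 2 or 6, the cells without the transcript. Among the 3 EHF PGCs without Xist, Sox17 (-2.24) and Sox4 (-1.48) were called lower, and Sox3 differed by -0.60. In E8.25 against EHF PGCs none of the 5 was called (3.83% of genes higher, 3.40% lower). Their differences lay between -0.54 for Sox4 and 0.52 for Sox3.

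Over the whole span, in E8.25 PGCs against PS cells, all 5 genes were called, 3 higher and 2 lower, beside 10.5% and 11% of genes. Sox17 was higher by 3.09 and at least 3.65-fold, a bound that sets the PGC mean against the detection limit because no PS cell had it. Sox2 differed by 1.81 and Sox3 by 2.27, with overlapping cells. Sox4 differed by -2.72 and Sox11 by -2.44, again with overlap. All PS cells and no E8.25 PGC had Xist, so sex, as read from Xist, and stage cannot be told apart here either. The same holds for the choice of cells, by Oct4 and T at PS and by Blimp1 and Dppa3 at E8.25.

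**Figure D2:**
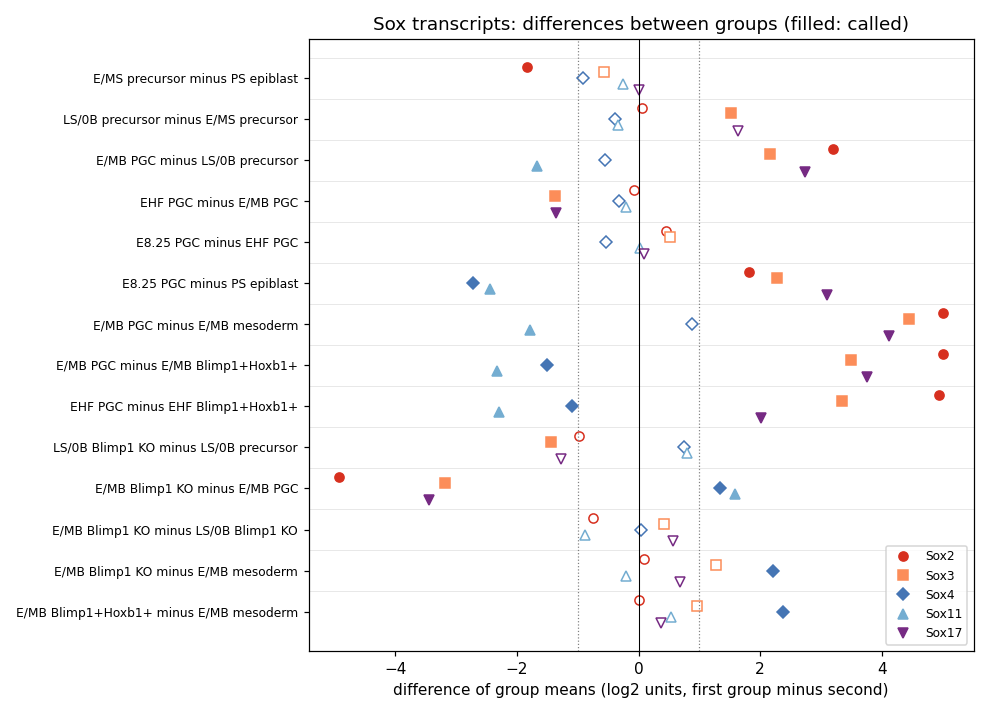
Difference of group means in log2 units, first group minus second, for the 5 Sox genes (symbols) in 14 comparisons (rows); filled symbols were called and dotted lines mark 1 log2 unit. In E/MB Blimp1 KO cells against E/MB PGCs, Sox2, Sox3 and Sox17 lie to the left at -4.93, -3.18 and -3.44, and Sox4 and Sox11 to the right at 1.34 and 1.59.

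The comparison with cells of the same stage that are not germ cells placed Sox2, Sox3 and Sox17 higher in PGCs than in mesoderm and in the Blimp1+ Hoxb1+ cells, also with the probe sets of Sox3 and Sox17 averaged (Sox2 has 1). For Sox11 and Sox4 the probe set mattered. In E/MB PGCs against mesoderm Sox2, Sox3 and Sox17 were called higher and Sox11 lower, beside 18% of genes higher and 7.75% lower. All 3 of the higher genes were so without overlap of a single cell, which held for 2.58% of the genes tested. Sox17 was at 826 to 2399 in the PGCs, against 210 and 127 in 2 mesoderm cells and at most 5.02 in the other 8, a difference of 4.13. Sox11 was above the limit in 1 of 8 PGCs, against 9 of 10 cells of the mesoderm, a difference of -1.79 by its brightest probe set, but of 0.038 by the second brightest, so its direction depends on the probe set. Sox4 differed by 0.88, and by -0.35 with all its probe sets averaged, and by the brightest it was called higher without E/MB PGC replicate 5 or 7 or mesoderm replicate 7 or 9. The array controls that set the mesoderm apart move with this comparison, and the median of 7250 broadly detected genes was 0.16 higher in the PGCs. The part of the arrays in the result was not tested. PGCs were chosen by Blimp1 and Dppa3, and mesoderm cells by Oct4 and Hoxb1 without Blimp1. Cell type and the choice of cells therefore cannot be told apart here.

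Against Blimp1+ Hoxb1+ cells all 5 genes were called at both stages. At E/MB 3 were higher and 2 lower in PGCs, beside 10.2% and 11.1% of genes, and the 3 higher ones did not overlap, as 3.16% of genes did not. Sox17 was at 826 to 2399 in the PGCs, against 8.37, 145, 184 and 11.5 in the 4 Blimp1+ Hoxb1+ cells, a difference of 3.76. Sox3 was at 886 to 3421 in the PGCs, against 217, 12.1, 682 and 34.6, a difference of 3.49. Each of the 2 genes was in 2 of the 4 cells, below every PGC. Sox4 ran from 13.9 to 2439 in the PGCs and read 1730, 1359, 1409 and 1966 in the Blimp1+ Hoxb1+ cells, so the groups overlapped, with a difference of -1.50. That call was lost by the second brightest probe set (-0.95) and by the mean of all (-0.23). Sox11 was at 584 in 1 PGC and at 1 in the other 7, against 579, 777, 323 and 311 in the Blimp1+ Hoxb1+ cells, a difference of -2.33. The Blimp1+ Hoxb1+ cells were chosen by Blimp1, Oct4 and Hoxb1, and the PGCs by Blimp1 and Dppa3. Cell type and the choice of cells therefore cannot be told apart at either stage.

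At EHF the same 3 genes were higher in PGCs and 2 lower, beside 14.1% and 11.4% of genes. Sox2 alone did not overlap (3.61% of genes), at 678 to 3977 in PGCs against at most 2.67 in the 4 Blimp1+ Hoxb1+ cells, at least 17.6-fold. Sox3 was in none of the 4 cells, at 19.5 or below, and at least 5.31-fold higher in the PGCs. Sox17 ran from 5.35 to 2587 in the PGCs and read 180, 13.5, 434 and 8.75 in the Blimp1+ Hoxb1+ cells, a difference of 2.01. Sox11 differed by -2.30, and by -0.44 with its second brightest probe set, which lost the call. The Sox4 difference of -1.09 lay between -1.39 and -0.71 when 1 cell was left out, and its call was lost without EHF PGC replicate 1, 2 or 7 or Blimp1+ Hoxb1+ replicate 1 or 2, and by its second brightest probe set (-0.70). Only 4 cells stand for each of these groups, so that a share of 0 of 4 allows up to 60.2% by its exact interval.

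The Blimp1 knockout is followed by the Blimp1 transcript first. The Prdm1 signal was above the limit in 12 of 20 knockout cells at LS/0B (27.7 over 154 to 1064), against 16 of 17 LS/0B precursors (102 over 639 to 2275). At E/MB it was in 9 of 12 knockout cells (64.6 over 185 to 1276), against 8 of 8 PGCs (1129 over 1537 to 2484). As the knockout cells were chosen by the transcript of the null allele, this signal does not check their genotype.

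At LS/0B 1 of the 5 genes was called between knockout cells and precursors. Sox2 was in 7 of 20 knockout cells and 7 of 17 precursors, with means of 6.97 ± 1.36 and 7.95 ± 2.28. The brightest knockout cell had 1865 and the other 6 had 132 to 497, so 6 of 7 lay below every positive precursor, which had at least 877. Sox3 was in 7 of 20 knockout cells and 10 of 17 precursors, at means of 7.24 ± 1.73 and 8.68 ± 2.47, and was the gene called, lower by a difference of -1.44, beside 0.770% of genes lower and 2.40% higher. Sox17 was in 2 of 20 knockout cells (1024 and 703) and 8 of 17 precursors. Its difference of -1.27 missed the call on the share of precursors, as above, and passed it when any 1 of precursor replicates 1 to 5, 7, 8, 14 and 23 was left out. Sox4 and Sox11 were in 19 of 20 knockout cells each, against 15 and 12 of 17 precursors, with differences of 0.74 and 0.80. No knockout cell had Xist. Set against the precursors without Xist, the differences were 0.42 for Sox2, -0.28 for Sox3 and -0.39 for Sox17, and no gene was called.

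At E/MB all 5 genes were called, 3 lower and 2 higher in knockout cells than in PGCs, beside 7.61% and 8.31% of genes. Sox2 was at most 3.54 in 11 of 12 knockout cells and 145 in the twelfth, against 691 to 3543 in the PGCs. Its means were 6.22 ± 0.30 and 11.15 ± 0.75, a difference of -4.93, and the shares detected were 8.33% (exact 95% interval 0.211 to 38.5%) and 100% (63.1 to 100%). Sox17 was in 5 knockout cells, at 216 to 787, all below the lowest PGC at 826, a difference of -3.44. Sox2 and Sox17 thus lay below the PGCs without overlap, as did 0.856% of the genes tested. Sox3 was in 5 of 12 knockout cells, at 404 to 1692, within the range of the PGCs (886 to 3421) for 3 of the 5. Its means were 7.67 ± 1.95 and 10.85 ± 0.73, a difference of -3.18.

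Sox4 and Sox11 were called higher in the knockout cells of this stage by their brightest probe sets. Both calls were lost when the probe sets detected in at least 25% of cells were averaged, at 0.71 for Sox4 and 0.96 for Sox11, and Sox4 was at 0.89 by its second brightest. Sox4 was in 12 of 12 knockout cells, 555 over 1508 to 2728, against 7 of 8 PGCs, 13.9 over 589 to 2439. The difference was 1.34, and it was 0.91 without E/MB PGC replicate 5. Sox11 was in 9 of 12 knockout cells, 63.8 over 316 to 793, against 1 of 8 PGCs, a difference of 1.59. Neither group had a cell with Xist. PGCs were chosen by Dppa3 and knockout cells were not, so the choice of cells and the genotype cannot be told apart in this comparison.

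The 4 E/MB knockout cells that did have Dppa3 share that mark with the PGCs. All 4 had Sox3 and none had Sox2, while Sox17 was in 2 of them. Of the 8 knockout cells without Dppa3, 1 had Sox3, 1 had Sox2 and 3 had Sox17. No knockout cell of this stage had Sox2, Sox3 and Sox17 together. These are counts of 12 cells and carry no test.

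Between the knockout stages none of the 5 genes was called, E/MB against LS/0B (1.16% of genes higher, 1.45% lower). Their differences lay between -0.88 for Sox11 and 0.57 for Sox17, and Sox11 was called lower without E/MB knockout replicate 11. Against mesoderm, Sox4 was called higher in E/MB knockout cells, by 2.21 (15.1% of genes higher, 2.82% lower), and in E/MB Blimp1+ Hoxb1+ cells, by 2.38 (17.6% and 6.02%). Sox3 differed by 1.27 and 0.96 in these comparisons. The hybridisation controls of the mesoderm arrays and a shift of 0.15 and 0.098 in the median of broadly detected genes go with them, and their part was not tested. The Blimp1+ Hoxb1+ count was 2, with Sox3, without replicate 2 or 4 of these cells or mesoderm replicate 8 or 9.

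The Sox4 calls against mesoderm depend on the probe set. Sox4 has 8 probe sets on the array and 3 of them were above the limit in no cell. The brightest put E/MB knockout cells at 10.48 ± 0.66, PGCs at 9.14 ± 1.76 and mesoderm at 8.27 ± 1.54. The third by brightness put E/MB knockout cells at 7.71 ± 1.29, PGCs at 6.89 ± 1.45, Blimp1+ Hoxb1+ cells at 6.91 ± 0.94 and mesoderm above all of them at 8.86 ± 1.12. Averaged over all 8 probe sets the difference between Blimp1+ Hoxb1+ cells and mesoderm was -0.12, and the direction of Sox4 in mesoderm is thus not settled. Averaged over the 5 probe sets above the limit in at least 25% of cells it was -0.18. In the PS cells all 5 of these probe sets had a mean above that of each PGC group.

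Sox11 has 6 probe sets, of which 4 were above the limit in at least 25% of cells. Its second brightest put E/MB PGCs at 6.87 ± 1.25 and mesoderm at 6.83 ± 1.10, each with 2 cells above the limit, a difference of 0.038 where the brightest gave -1.79. The next probe sets by brightness gave 6.77 ± 0.91 and 6.13 ± 0 in the PGCs, against 8.14 ± 1.30 and 7.69 ± 1.21 in mesoderm. All 4 placed PS cells above each PGC group.

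**Figure D3:**
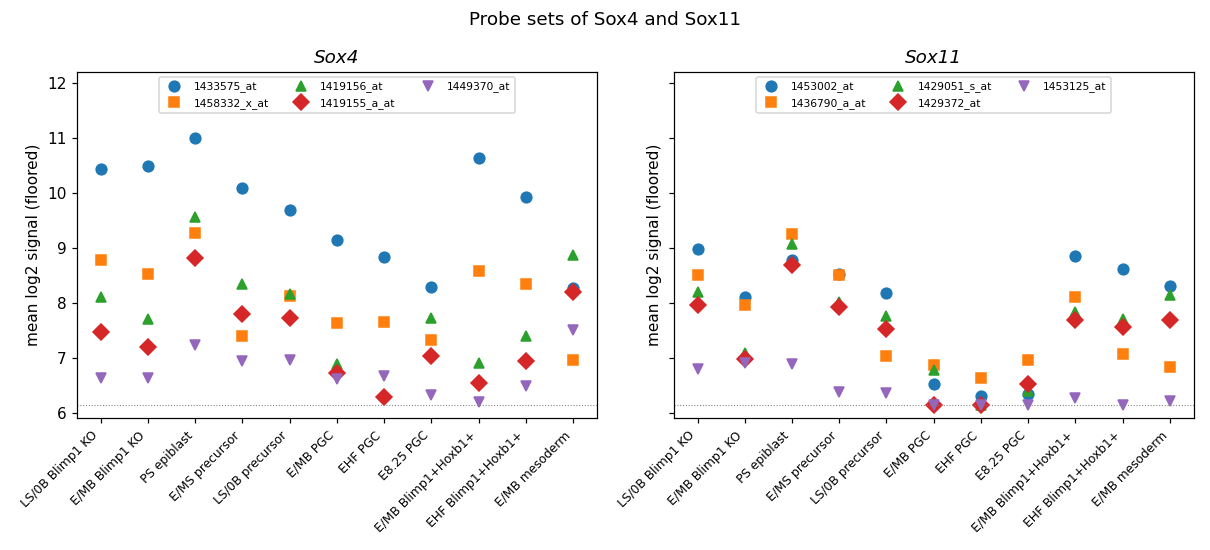
Mean floored log2 signal of each probe set of Sox4 (left) and Sox11 (right) that was above the limit in any cell, by group along the horizontal axis; the dotted line is the floor of 6.13. The 5 Sox4 and the 4 brightest Sox11 probe sets are all higher in PS than in each PGC group, and they part in mesoderm, where Sox4 lies at 8.27 by the brightest and 8.86 by the third.

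Cell by cell, Sox2, Sox3 and Sox17 were found together in most PGCs. All 3 were in the same cell in 8 of 8 E/MB PGCs, 5 of 8 EHF PGCs and 7 of 8 E8.25 PGCs, and in 6 of 17 LS/0B precursors and 1 of 20 LS/0B knockout cells. No cell of the other 6 groups had all 3. Over all groups, 27 cells had all 3, and 7 of these also had Sox11 by its brightest probe set. Of the 31 cells with none of the 3, 30 had Sox11 by that probe set.

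The LS/0B precursors divided along this line. Of their 17 cells, 6 had all 3 genes and 6 had none, and Hoxb1, a gene of the posterior mesoderm programme, was absent from exactly the 6 cells with all 3 and present in the other 11. All 6 also had Prdm14, a regulator needed for PGC specification, and 5 had Dppa3, while of the 6 cells with none 2 had Prdm14 and 0 had Dppa3. All 6 had Xist as well, as did 2 of the cells with none. Within the 8 cells with Xist, Sox2, Sox3 and Sox17 were in 6 each, and within the 9 without it, in 1, 4 and 2. Sox11 was in 5 of 8 and 7 of 9 cells, and Sox4 in 6 of 8 and 9 of 9. The 6 cells with all 3 were replicates 18 to 22 and 24, and none was among replicates 1 to 8. Whether runs of replicate numbers differ in embryo or collection is not labelled, so that cannot be told apart from the division. Sex, as read from Xist, and the division by Sox genes cannot be told apart in most of these cells either.

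Single cells went against the overlap with Xist. Replicates 14 and 23 had Xist and Hoxb1, and Sox2, Sox3 and Sox17 were at 26.5 or below in both. Replicate 16 had no Xist but had Sox3 at 2467 and Sox17 at 1132, with Sox2 at 3.73 and Sox11 at 1. Replicate 2 had no Xist and had Sox2 at 965 and Sox3 at 904, with Sox17 at 4.90. Every precursor of this stage with Sox2 had Sox3 and Prdm14, and all 8 with Dppa3 had Sox3.

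**Figure D4:**
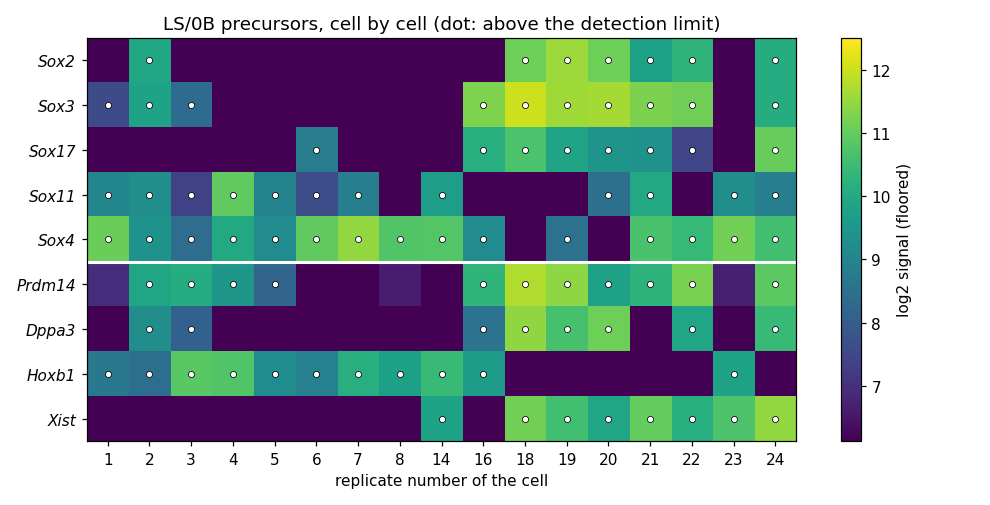
Floored log2 signal (colour) of the 5 Sox genes, Prdm14, Dppa3, Hoxb1 and Xist (rows) in each of the 17 LS/0B precursors (columns, by replicate number); a dot marks a signal above the detection limit. The 6 cells with Sox2, Sox3 and Sox17 together, replicates 18 to 22 and 24, are those without Hoxb1.

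Over all cells Sox2 correlated with Sox3 at r = 0.65 and with Sox17 at 0.56, Sox3 with Sox17 at 0.60, Sox4 with Sox11 at 0.36, and Sox11 with Sox17 at -0.57. With the group means removed these were 0.46, 0.25, 0.32, 0.15 and -0.23. Cells of a group share a stage and a way of being chosen, so these coefficients are descriptions without a p-value.

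Among 9728 genes above the limit in at least 20 cells, those most like each Sox gene were found by the same coefficient. For Sox2 they were Dppa3 (r = 0.80, and 0.45 within groups), Slc40a1, Cldn7, Syt2 and Tpd52 (0.75). For Sox3 they were AW551984 (0.74, and 0.68 within groups), Dnd1, Tfap2c, F11r and Prdm14 (0.72), of which Dnd1 protects mRNAs in germ cells and Tfap2c and Prdm14 are regulators of PGC formation. For Sox17 they were AU015836 (0.81, and 0.59 within groups), Dppa3, Syt2, Dnd1 and Tfap2c (0.69). For Sox11 they were Prps1 (0.65, and 0.33 within groups), Gja1, Uhrf1, Dnmt3b and Tmem215 (0.60), of which Uhrf1 and Dnmt3b serve DNA methylation. Within groups Gja1 was at 0.13, Uhrf1 at 0.19, Dnmt3b at 0.19 and Tmem215 at 0.09, so most of their likeness to Sox11 lay between groups. For Sox4 they were Ptbp2 (0.62, and 0.42 within groups), Zfp36l2, Ddx21, Snrpb2 and Etf1 (0.56). Dppa3, by which the PGCs were chosen, was the gene least like Sox11, at -0.67, and at -0.27 within groups.

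The partners and known targets of Sox2 were called in part. Of 15 such genes in a list chosen with these data known, 8 were detected widely enough to be counted in E/MS precursors against PS cells, and 3 were called lower, Pou3f1 (-3.13), Utf1 (-3.58) and Nanog (-1.38), with none higher, where 6.51% of all genes tested were lower. In E8.25 PGCs against PS cells 3 of 11 were higher, Klf2 (3.89), Klf5 (2.70) and Esrrb, and 3 lower, Pou3f1 (-3.04), Nanog (-1.11) and Dppa5a, beside 10.5% and 11% of all genes. Utf1, a chromatin factor of pluripotent cells, was in 8 of 8 cells of both, with means of 9.88 ± 0.65 and 9.90 ± 1.20, and in 3 of 8 E/MB PGCs, when Sox2 was already in all 8. In E/MB knockout cells against PGCs 4 of 7 were lower and none higher, Klf2 (-2.18), Nanog (-2.03), Klf5 (-1.34) and Pou5f1 (-1.29), beside 7.61% of all genes lower and 8.31% higher. The median over all 15 genes of the list was -0.26 there, against 0 over all genes and -0.01 over the genes tested. Pou5f1 was detected in every cell, and so was the zinc finger factor Sall4. All groups but the PGCs were chosen as cells with Pou5f1 (Oct4), so its presence in them follows from that choice.

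Sox17 and Sox2 also mark other tissues, whose genes were followed in the same cells. Of 12 endoderm markers, 6, 8 and 7 were in no cell of the E/MB, EHF and E8.25 PGCs; Gata4 and Gata6 were in none of these 24 cells, and Foxa2 in 2, 0 and 1 of 8. Trh of the same list was in 5, 6 and 3 of 8, against 0 of 10 mesoderm cells and 0 of 4 Blimp1+ Hoxb1+ cells at either stage, and was called higher in E/MB PGCs than in both (1.03 each) and in EHF PGCs than in Blimp1+ Hoxb1+ cells (1.39). It was also in 3 of 8 PS cells. In E/MS precursors, where Sox17 was absent, Gata4 and Gata6 were in 5 of 7 cells each. Of 7 neural plate markers 6, 6 and 5 were in no cell of the 3 PGC groups, and Sox1, the third SoxB1 gene, was in none of them. The 1 marker found in EHF PGCs was in enough of these cells to be counted, while no marker of the list was in any other group. That marker was not called in EHF PGCs against E/MB PGCs or EHF Blimp1+ Hoxb1+ cells, nor in E8.25 against EHF PGCs. Sox2ot, a transcript whose gene surrounds Sox2, was in 1 cell of all, at 180 in an E/MB Blimp1+ Hoxb1+ cell.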

How the data were processed

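The authors deposited MAS5 signal intensity per probe set, 1 array per cell, a linear intensity per the submitters' processing notes and the values; the sources used here give neither the MAS5 version nor its scaling target. Of 45101 probe sets, 34945 have 1 gene symbol in the platform annotation, for 18193 genes. The floor is the median over cells of the 90th percentile of 126 background probe sets (a signal of 70.2), and 15.3% of all values are at 1. The detection limit is each cell's 95th percentile, 82.8 to 166 with a median of 120. Each gene is read by its brightest probe set on the mean log2 signal. Columns of samples outside the series numbered 0. Groups come from the labels, and each of the 14 comparisons is a difference of group means with the SD over cells; as each group is 1 sample, no test was run. Shares of cells carry exact Clopper-Pearson intervals at 95%, for counting error only. At-least folds use the detection limit of the group without the gene. Arrays give no read depth, and the number of cells limits the precision.

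The members and all lists were chosen with earlier results of these data known. The named genes are the 5 members, for each the 5 most correlated genes, the genes used to choose cells, Xist, 14 other Sox genes, 15 partners and targets of Sox2 and marker lists of germ cells, endoderm, neural plate, blood and endothelium, posterior mesoderm and trophoblast; the least correlated gene of Sox11 and Sox2ot were named after their values were seen. Alternatives were another detection limit, no floor, a pseudocount of 50, equal medians of 7250 broadly detected genes, the mean of all probe sets, cells without Xist and leaving out each cell. The second brightest probe set and the mean of probe sets detected in 25% of cells were chosen after seeing the data. The call rule was tested on simulated data. Python 3.11.15, pandas 2.3.3, numpy 2.4.6, scipy 1.17.1 and matplotlib 3.10.9 were used. Promoter sequences are those of RefSeq for GRCm38.p6, and the set used here held 3 of the 5 genes.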

Additional observations from a re-analysis of the deposited data

Results flagged for a closer look

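In groups of 4 to 10 cells, 6 cells stood apart from the rest of their group by Dixon's ratio at its 95% level, which chance gives in about 1 group of 20 where values are not held at a floor; 34 pairs of gene and group were looked at. Sox11 gave 4 of them. By the brightest Sox11 probe set, E/MB PGC replicate 8 was the highest of its group at 9.19 log2 units (a signal of 584). So were EHF PGC replicate 1 at 7.54 (187) and E8.25 PGC replicate 1 at 7.79 (221). Each was the only cell of its group with Sox11 by that probe set. The others were at the floor of 6.13, where any single cell above the floor would stand apart. PS replicate 5 was the lowest for Sox11 at 6.56 (94.1), against a mean of 9.09 in the other 7. For Sox2, E/MB PGC replicate 7 was the lowest at 9.43 (691), against a mean of 11.39 in the other 7. For Sox3, mesoderm replicate 9 was the highest at 8.16 (286), against 6.20 in the other 9.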

How the results depend on the processing

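No paired analysis was possible because the results come from no test and replicate numbers only name cells. The 99th percentile as detection limit bears on calls alone and moved no count by over 1.5 times. All 40 differences among cells without Xist stayed within 1 SD, as did all 1395 with 1 cell left out. The SDs are wide, and some differences changed sign among cells without Xist. Sox2 went from -0.98 to 0.42 in LS/0B knockout cells against precursors, and from 0.064 to -1.33 in LS/0B against E/MS precursors. Beyond 1 SD, 26 of 70 moved without a floor, 2 of 70 with a pseudocount, 2 of 70 with equal medians, and 5 of 56 with the mean of all probe sets. The count of genes called in E/MS against PS was 1, and 3 without a floor and 2 by the second brightest or the averaged detected probe sets. In LS/0B against E/MS precursors it was 1, and 2 without a floor or by the second brightest probe set, and 0 by the mean of all probe sets or among cells without Xist. In EHF against E/MB PGCs it was 2, and 1 by the mean of all probe sets. In EHF PGCs against Blimp1+ Hoxb1+ cells it was 5, and 3 by the mean of all or the second brightest probe sets. In LS/0B knockout cells against precursors it was 1, and 3 without a floor, 2 by the second brightest probe set, and 0 by the mean of all probe sets or without Xist cells. In E/MB knockout cells against PGCs it was 5, and 3 by the mean of all or of the detected probe sets, which lost Sox4 and Sox11. Against mesoderm it was 1 for E/MB knockout cells, and 2 by the second brightest and 0 by either mean; for Blimp1+ Hoxb1+ cells it was 1, and 3 without a floor, 2 with a pseudocount or the second brightest, and 0 by either mean. Sox4 in Blimp1+ Hoxb1+ cells against mesoderm turned to -0.12 by the mean of all probe sets and -0.18 by that of the detected ones, and Sox11 in E/MB PGCs against mesoderm to 0.038 by its second brightest; why the probe sets differ was not tested. With 1 cell left out the counts lay between 4 and 5 (E/MB knockout against PGC, E/MB PGC against mesoderm, EHF PGC against Blimp1+ Hoxb1+), 1 and 2 (E/MS against PS, LS/0B against E/MS, EHF against E/MB, LS/0B knockout against precursors, Blimp1+ Hoxb1+ against mesoderm), 0 and 1 (between knockout stages), and stayed at 5, 5, 4, 1 and 0 in E/MB PGC against Blimp1+ Hoxb1+, E8.25 against PS, E/MB PGC against LS/0B, E/MB knockout against mesoderm and E8.25 against EHF. Groups of 4 to 20 cells and signals near the floor limit what can be seen.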

Other observations

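Of 14 other Sox genes with a probe set, 6 were detected in enough cells to be called in E8.25 PGCs against PS cells. Sox13 and Sox15 were called higher and Sox12 lower, beside 10.5% and 11% of all genes. Sox13, a SoxD gene, averaged 7.64 ± 1.15 log2 units at PS, 7.68 ± 0.93 at E/MS and 9.08 ± 0.97, 9.56 ± 0.78 and 9.59 ± 0.96 in PGCs at E/MB, EHF and E8.25, and was called higher in E8.25 PGCs than in PS cells by 1.95. Sox15, which in the mouse is active in embryonic stem cells, was in 4, 7 and 7 of 8 PGCs, against 2 of 8 PS cells and at most 1 cell of any other group, and was called higher in E8.25 PGCs than in PS cells by 2.11. Sox12, the remaining SoxC gene, differed by -1.14 in the same comparison, with Sox4 and Sox11, and by -1.18 in E/MS precursors against PS cells. In E/MB knockout cells against PGCs none of the 6 with enough cells was called, beside 8.31% of genes higher and 7.61% lower; Sox13 differed by -0.51, Sox15 by -0.91 and Sox12 by -0.38. Sox9 and Sox21 read above the limit in every cell, with group means of 9.18 to 9.73 and 8.13 to 8.70. The limit is set from other probe sets, and whether this even signal comes from their transcripts was not tested.

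The marker lists give the setting of the Sox genes. In E8.25 PGCs against PS cells 9 of 9 germ cell genes were called higher, with a list median of 3.83, and in E/MB knockout cells against PGCs 8 of 9 were lower, with a list median of -2.81. Prdm1 and Dppa3, by which the PGCs were chosen, are among the genes called each time. Their calls cannot be told apart from the choice of cells. Of 10 posterior mesoderm genes 2 were in enough cells in the first comparison, of which Cdx1 was higher, and 8 in the second, all of them higher, with a list median of 2.02. In the first, no gene of the endoderm, neural plate or blood and endothelium lists was detected in enough cells to be called, and of the trophoblast list 2 were and neither was called. In the second, enough cells had 2 endoderm genes, of which Trh was lower, 1 blood and endothelium gene, Etv2, which was higher, 2 trophoblast genes, of which Hand1 was higher, and 0 neural plate genes. The shares of all genes called are those given above for these comparisons.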
